A study of Mus musculus with 30 samples.

Results

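Immortalised brown preadipocytes whose glucocorticoid receptor gene had been deleted were compared with control cells 4 hours after adipogenic induction. The comparison uses 2 of the 8 RNA libraries (and of 30 samples in all), picked by the genotype and time in their titles, and it takes in every gene whose RPKM (reads scaled to the length of the transcript and to the total of the library) was at least 1 in either library, 11897 of 23109 genes. The cells were grown out of the brown fat between the shoulder blades of newborn C57BL/6J pups in which both Nr3c1 alleles carry loxP sites (GRf/f), and SV40 T antigen immortalised them. A retrovirus without an insert gave the control cells, called Vec, and a retrovirus with Cre recombinase gave the receptor-deleted cells, called Cre. The floxed alleles, T antigen (which binds p53 and the retinoblastoma protein) and a retroviral infection are therefore common to both. Plated 4 days earlier, the confluent cells of each kind received the same mix, which held 2 µg/ml of dexamethasone beside insulin (0.02 µM), IBMX (0.5 mM), indomethacin (0.125 mM) and T3 (1 nM), and 4h denotes the libraries taken after 4 hours of it. D0 denotes the cells before induction, and D2 and D7 denote days 2 and 7. Each genotype and time is represented by 1 library, and the labels name no second infection or line. No test of the genotype exists, and intervals beside ratios cover counting error only. RNA of cells given the mix without dexamethasone was not analysed here, so the action of dexamethasone and that of the other agents cannot be told apart here.

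The glucocorticoid receptor is a nuclear receptor that waits in the cytoplasm on chaperones, enters the nucleus when it binds a steroid such as dexamethasone, and there binds DNA as a dimer or joins other factors on it. It is known both for raising the transcription of feedback and metabolic genes and for lowering that of inflammatory genes driven by NF-kB and AP-1. In preadipocyte culture, dexamethasone is combined with insulin and with IBMX, which blocks the breakdown of cAMP, to start the cascade of C/EBP factors and PPARγ that makes an adipocyte. SV40 T antigen, insulin and cAMP act on many of the same genes by other routes.

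The receptor dimer binds an inverted repeat of a short half-site, so promoters (250 bases before to 50 bases after a transcript start, from the RefSeq table of assembly GRCm38.p6) were searched on both strands for GNACANNNTGTNC, which reads the same on each. Of the 308 genes lower in Cre at 4h, 172 had a promoter in the table and 7 of these (4.07%) held the element. It was present in 1 of 89 promoters (1.12%) of genes higher in Cre, in 35 of 9077 (0.386%) of all genes tested and in 145 of 27025 (0.537%) of all genes in the table. These are the matches among genes past the threshold, with the 13-base element in capitals between 8 bases on each side, because they show how few promoters carry the letters and how the spacer between the half-sites differs.
Sgk1: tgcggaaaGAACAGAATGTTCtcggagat
Mt1: cactatagGGACATGATGTTCcacacgtc
Fam107a: ggtggcttGGACATGGTGTTCtgagtctc
Map3k6: gaatagggGCACAGGCTGTTCcggaagtg
Serpina3n: agcacagaGCACAGCTTGTCCatgccagc
Serpina3c: agcacagaGCACAGCTTGTCCatgccagc
Slc10a6: cttccctaGAACACGATGTGCcactgtcg
Mir100hg: tcacagaaGGACACAGTGTACtctgtgtc
The window of Sgk1 is chr10:21993694-21993722 on the plus strand, that of Mt1 chr8:94178987-94179015 (plus), that of Fam107a chr14:8309877-8309905 (minus) and that of Map3k6 chr4:133240629-133240657 (plus). Those of Serpina3n and Serpina3c are chr12:104406622-104406650 (plus) and chr12:104153927-104153955 (minus) and are identical letter for letter. That of Slc10a6 is chr5:103629546-103629574 (minus), the only window of the 8 that lies outside every annotated gene, and that of Mir100hg is chr9:41474697-41474725 (plus). The elements end between 63 bases (Serpina3c) and 176 bases (Sgk1 and Mir100hg) before the start. The first 7 genes were lower in Cre, and Mir100hg, a long non-coding RNA singled out after its value was seen, was higher. Map3k6, Serpina3c and Slc10a6 were named through this search, after their values were seen.

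The other elements searched were found in more of all tested promoters, and differences between the sets were not tested. The single half-site AGAACA was in 14.5% of promoters of genes lower in Cre, 11.2% of those higher and 14.2% of all tested, and the C/EBP site TTGCNNAA was in 14.5%, 12.4% and 9.62%. The cAMP response element TGACGTCA was in 3.49%, 1.12% and 3.70%. It was found in 3 of the 25 promoters (12%) at hand for genes known to be induced by glucocorticoids, shown here because these genes are also described below, with the element in capitals.
Arl4d: gcgtcgtgTGACGTCAcgagaggg
Dusp1: agggcgggTGACGTCAccgcccgg
Errfi1: gcgggcgtTGACGTCAcgttgtcg
They lie at chr11:101665507-101665530 (plus), chr17:26508600-26508623 (minus) and chr4:150855011-150855034 (plus). In the same 25 promoters the palindromic receptor element was found 4 times (16%), in Sgk1, Mt1, Fam107a and Serpina3n. For targets of cAMP, 2 of 19 promoters (10.5%) held the cAMP response element and 0 of 19 the palindromic element. For interferon-stimulated genes, each of these elements was in 0 of 21 promoters. A match in these letters is no evidence of binding, and a promoter without one may be bound elsewhere. Binding data of the series were not analysed here.

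The libraries differed in depth, with 12.3 M reads in Vec 4h and 7.71 M in Cre 4h (15.2 to 28.9 M in the other 6). For a transcript of median length a floor of 3 reads is an RPKM of 0.0970 in Vec 4h and 0.154 in Cre 4h. Nr3c1 itself, the deleted gene, was measured at 12.9 RPKM in Vec 4h and 4.04 in Cre 4h, 3.18-fold higher in Vec (95% interval 2.73 to 3.73), and Vec was the higher library at D0, D2 and D7 as well. Exons inside and outside the loxP sites are not separated in these values. The mesenchymal markers Pdgfra, Vim, Col1a1 and others summed to an RPKM of 4079 in Vec 4h and 4144 in Cre 4h, and 1 of 10 differed by at least 1, Pdgfrb (a growth factor receptor of stromal cells, 14.9 in Vec and 35.1 in Cre, a difference of 1.18). Skeletal muscle markers summed to 8.27 and 8.19 with 6 of 12 at 0 reads in both, endothelial markers to 1.27 and 1.80 with 3 of 8 at 0, macrophage markers to 2.58 and 1.87 with 3 of 7 at 0, and squamous epithelial markers to 27.2 and 38.9 with 2 of 9 at 0. In bulk RNA, a change in the number of cells of some kind and a change in RNA per cell cannot be told apart.

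A gene is called lower or higher in Cre below when log2(RPKM + 1), Cre minus Vec, was -1 or less, or 1 or more. By this rule of size 504 genes differed at 4h (4.24%), 308 of them lower in Cre (2.59%) and 196 higher (1.65%). Counts of list members below are to be read beside these shares of all genes. At D0 the same rule counted 52 genes of 12007 (0.433%), at D2 487 of 11918 (4.09%) and at D7 562 of 12480 (4.5%). The counts lower and higher in Cre were 33 (0.275%) and 19 (0.158%) at D0, 183 (1.54%) and 304 (2.55%) at D2, and 389 (3.12%) and 173 (1.39%) at D7. Over all genes tested the difference had an SD of 0.166 at D0 and 0.450 at 4h, and the 5th and the 95th percentile at 4h were -0.62 and 0.65. The median gene stood 0.11 higher in Cre, a shift that TMM scaling took to -0.01. Of the genes past the threshold 38.9% were higher in Cre with the deposited RPKM, 26.8% with TMM and 27.2% with median-of-ratios factors, since those scalings left 147 and 149 genes higher and 401 and 399 lower.

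For the genes lower in Cre the median level was 14.6 RPKM in Vec against 4.02 in Cre, and together they made up 6.58% of the summed RPKM in Vec and 1.77% in Cre. The genes higher in Cre had a median of 2.90 in Vec and 8.22 in Cre and made up 0.476% and 1.30%. Differences below -1 also reached further: 61 genes lower in Cre had a size of at least 2 and 9 of at least 3, against 7 and 2 genes higher. The 95% counting interval of the read ratio excluded 1 for 256 of the 308 and for 138 of the 196, and fewer than 30 reads stood behind 61 and 64 of them. Over all 11897 genes tested, the interval excluded 1 for 5262, and 429 had fewer than 30 reads. Small non-coding RNAs, mainly microRNAs and small nucleolar RNAs, were 59 of the genes lower and 61 of those higher, of 245 tested. At the lower threshold, Slc25a25 (a mitochondrial carrier) was just inside and Phlda1 just outside, at differences of -1.001 and -0.999, and at the upper one Cyren was just inside (1.00005) and Inka1 just outside (0.999).

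**Figure D1:**
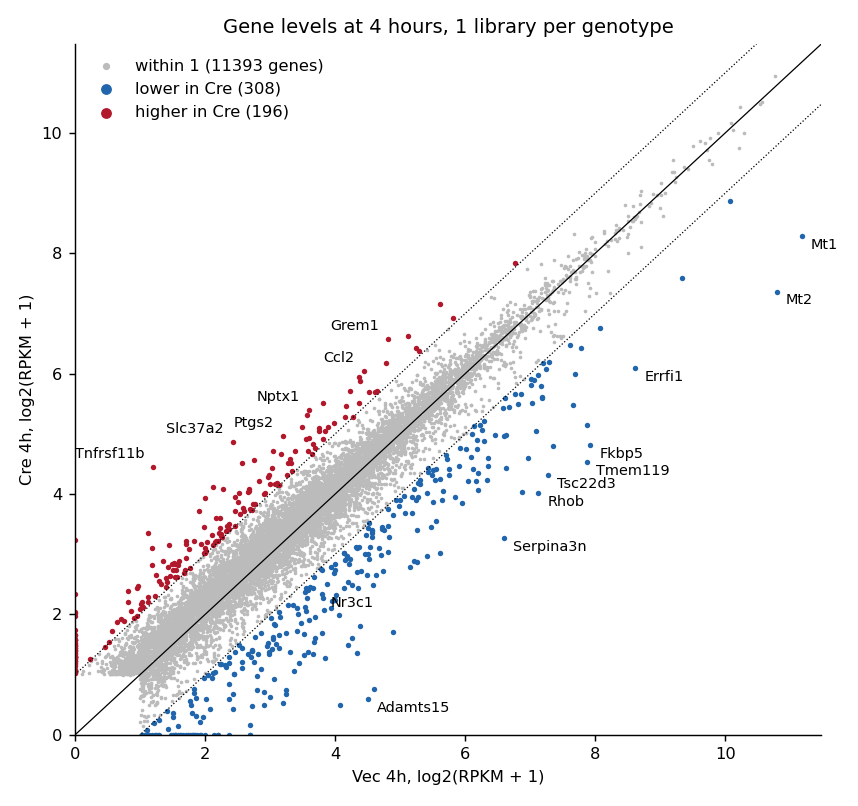
Each point is 1 of the 11897 genes, placed by log2(RPKM + 1) in Vec 4h (x axis) and Cre 4h (y axis). The solid line marks equal levels, the dotted lines a difference of 1, blue points the 308 genes lower in Cre and red points the 196 higher, and the blue points reach further from the line and to higher levels, as far as Mt1 at an RPKM of 2316 in Vec.

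Genes that glucocorticoids are known to induce were lower in the receptor-deleted cells nearly throughout. Of 27 tested, 23 were lower in Cre and 0 higher, beside 2.59% and 1.65% of all genes. The median difference was -1.86, where all genes had a median of 0.11. With TMM, median-of-ratios or centring on the median gene, 25 were lower. With an RPKM of at least 1 in both libraries 19 were lower, and with a pseudocount of 5 there were 18. Fam107a, Zbtb16, Klf15 and Lcn2 were below an RPKM of 1 in Cre and were tested through their level in Vec alone. Before induction 0 of 23 tested members were past the threshold (median 0.00). The list was assembled with earlier results of these data known and is no independent evidence of its direction. Lists share members, and a shared gene is counted in each of its lists. Mt1, Mt2, Serpina3n, Lcn2, Errfi1, Dusp1, Nfkbia, Cebpd, Zbtb16, Klf9, Klf15, Per1, Lpin1 and Fkbp5 are counted here and again below.

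Fkbp5 encodes a chaperone partner of the receptor that lowers its affinity for hormone. Its RPKM was 20.2 in Vec and 19.5 in Cre at D0, 242 and 26.99 at 4h, 127 and 15.4 at D2, and 15.0 and 14.3 at D7. The Vec libraries of 4h and D2 stand apart from the other 6, and the 4h ratio was 8.97-fold (8.32 to 9.69). Tsc22d3, whose product GILZ restrains NF-kB and AP-1, stood at 14.0 in Vec and 14.4 in Cre at D0, 153 and 18.8 at 4h, 103 and 21.7 at D2, and 16.5 and 12.9 at D7. Here too Vec was far above Cre at 4h (8.13-fold, 7.20 to 9.20) and D2, while D0 and D7 were close. Sgk1, a kinase that acts on ion transport, was at 56.1 in Vec 4h and 14.5 in Cre 4h (3.86-fold, 3.40 to 4.401), and the Cre value is near the D0 values of 14.1 and 13.2.

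Zbtb16 encodes a zinc finger repressor. Its level was 0.0666 in Vec and 0.0162 in Cre at D0, 6.52 and 0.406 at 4h, 33.8 and 1.87 at D2, and 6.91 and 0.878 at D7. Its ratio at 4h was 16.1-fold (9.78 to 28.4), on 409 and 16 reads. Fam107a, an actin-associated stress gene, was at 5.47 in Vec 4h and 0.124 in Cre 4h, on 211 and 3 reads, a ratio of 44.2 with a wide counting interval of 14.9 to 216. Arl4d, a small GTPase of the ARF family, stood at 28.5 and 2.25 (12.6-fold, 8.40 to 19.9). Of these, Fam107a and Arl4d were near their D0 level in Cre 4h (0.0924 and 1.35 in Cre D0), while Zbtb16 was above it.

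Enzymes of intermediary metabolism were in the same group. Glul, glutamine synthetase, was at 72.6 in Vec 4h and 15.7 in Cre 4h (4.63-fold, 4.13 to 5.21) and remained lower in Cre at D2 (120 and 30.1) and D7 (98.3 and 34.6). Pdk4, the kinase that shuts pyruvate dehydrogenase, stood at 37.4 and 9.58 (3.90-fold, 3.42 to 4.47). Lpin1, a phosphatidate phosphatase, was at 10.6 and 4.17, but its locus overlaps Ntsr2 and reads of the pair may be mixed. Mertk, a receptor for dying cells, stood at 10.1 and 2.63, and the secreted Crispld2 at 19.3 and 5.53. Ddit4, an inhibitor of mTORC1, was closest to the threshold of those past it, at 96.8 and 47.5 (-1.01).

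Of the 4 members not past the threshold, Tgm2 (-0.91) and Cdkn1c (-0.94) were near it, and both were counted as lower with the other scalings. Angptl4, an inhibitor of lipoprotein lipase, was higher in Cre instead, at 12.3 in Vec and 18.5 in Cre (0.56), and Gadd45b was at 0.46. Both are also known to be induced by other inputs, fatty acids through PPARs for Angptl4 and stress signals for Gadd45b. Whether such inputs have a part in these values was not tested.

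**Figure D2:**
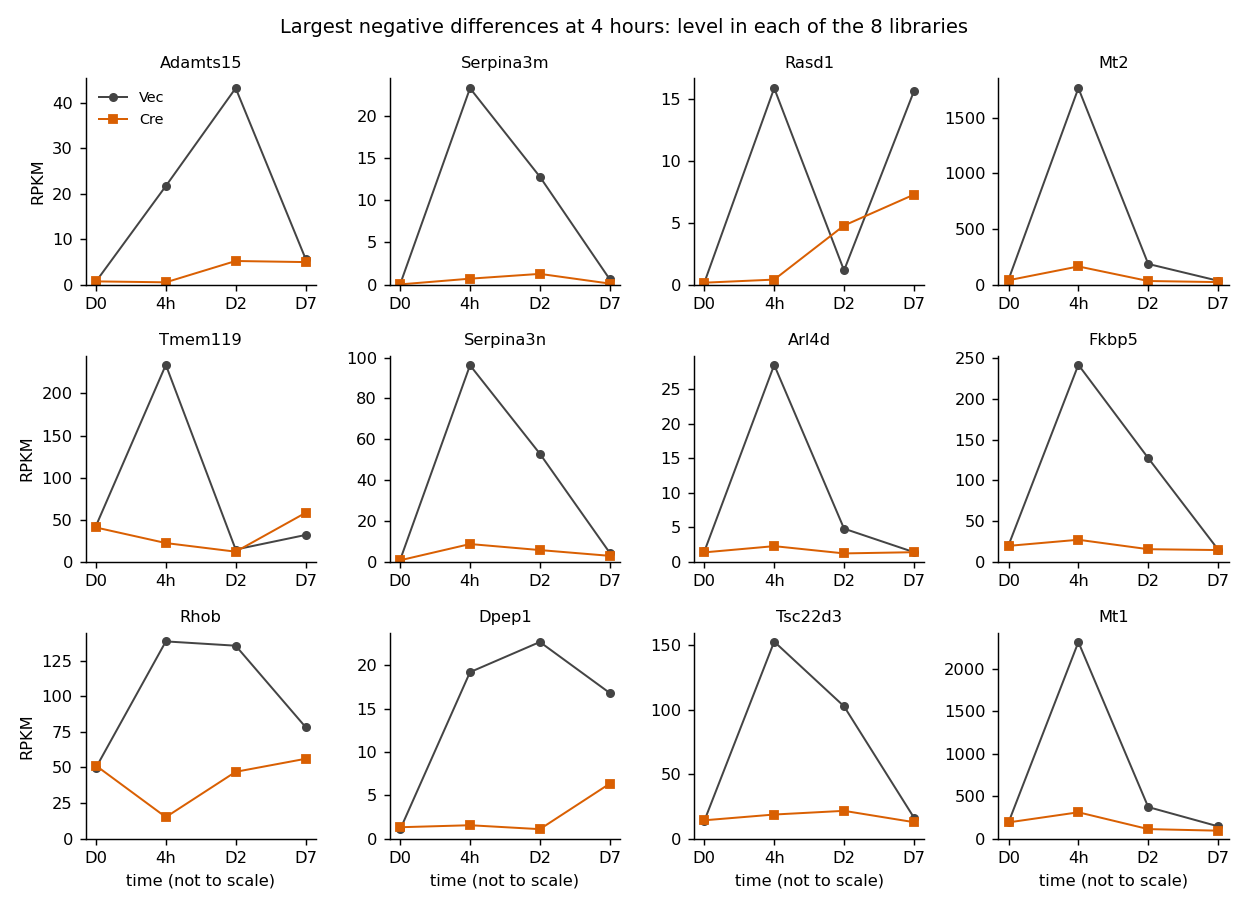
RPKM (y axes, each on its own linear scale) of 12 genes with the largest negative differences at 4h, in Vec (grey circles) and Cre (orange squares) at D0, 4h, D2 and D7, with 1 library per point and no error bar. The genotypes coincide at D0 and part at 4h, and for Fkbp5, Tsc22d3 and Adamts15 they are close again at D7.

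Metallothioneins bind zinc and copper and carry the largest level in this comparison. Mt1 had the highest RPKM of all genes in Vec 4h, 2316, and stood at 312 in Cre 4h (7.42-fold, 7.02 to 7.86), from 193 in each at D0. Mt2 was at 1768 and 163 (10.8-fold, 10.0 to 11.7), from 45.2 and 39.3. Together they took 0.305% of all gene reads in Vec 4h and 0.0351% in Cre 4h. They are related neighbours, and the sources used here do not say how any reads that match both were placed. Of 19 metallothionein and zinc transporter genes tested, 3 were lower and 0 higher, with a median of 0.14, near that of all genes. The other gene past the threshold was Slc39a14, a zinc importer of the plasma membrane (63.6 and 25.8, -1.27).

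Acute-phase genes encode secreted proteins of the inflammatory response. Of 11 tested, 8 were lower in Cre and 0 higher (median -1.71), beside 2.59% and 1.65% of all genes. Of the 8, 6 were below an RPKM of 1 in Cre and were tested through their level in Vec alone, so the count is a description. With an RPKM of at least 1 in both libraries 2 were lower, and with a pseudocount of 5 there were 4. The Serpina3 family of protease inhibitors supplied 5 of them, of which Serpina3h is annotated as a transcribed pseudogene. Serpina3m was at 0.0513 and 0.0250 at D0, 23.3 in Vec and 0.704 in Cre at 4h, 12.8 and 1.27 at D2, and 0.635 and 0.122 at D7 (33.1-fold at 4h, 17.3 to 72.8, on 474 and 9 reads). Serpina3n stood at 96.2 and 8.65 at 4h (11.1-fold, 9.37 to 13.3), Serpina3f at 6.51 and 0.633, Serpina3h at 4.18 and 0.506 and Serpina3c at 2.56 and 0.614. These genes form a cluster of close copies, so the split of reads among them is uncertain. Ptx3, a long pentraxin that opsonises microbes, was at 201 and 43.7 (4.59-fold, 4.23 to 4.99), with Veph1 overlapping it. Lcn2, an iron-scavenging lipocalin, had 29 reads and 1 read, a ratio of 18.2 whose interval runs from 3.02 to 744, and Saa3 had 17 and 1.

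Feedback inhibitors of kinase and cytokine signals were split. Errfi1, which blocks the EGF receptor, was at 392 in Vec 4h and 67.1 in Cre 4h (5.84-fold, 5.54 to 6.15), and Dusp1, which dephosphorylates p38 and JNK, at 70.5 and 17.6 (4.01-fold, 3.52 to 4.58). They were the only 2 of 17 MAPK phosphatases and feedback inhibitors lower in Cre, with 0 higher and a median of 0.10. Of all genes, 2.59% were lower and 1.65% higher. Errfi1 and Dusp1 are also among the glucocorticoid-induced genes counted above. Dusp4 (2.89 and 6.74, 0.99) and Dusp10 (4.60 and 9.23, 0.87) stood on the other side without reaching the threshold. Of 23 genes of NF-kB and IL-6 signalling, 2 were lower and 0 higher (median 0.20). These were Nfkbia, the inhibitor that holds NF-kB in the cytoplasm (58.7 and 21.2, -1.43), and Il6ra, the IL-6 receptor chain (11.9 and 2.87, -1.74). Relb, an NF-kB subunit, was higher in Cre without passing (2.26 and 5.37, 0.97), as was Socs1 (9.97 and 17.0, 0.72).

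Targets of cAMP were lower in part. Of 17 tested, 6 were lower in Cre and 0 higher (median -0.52), beside 2.59% and 1.65% of all genes. With the other scalings 8 were lower. Rgs2, which shortens signals from G-protein-coupled receptors, was at 2.69 and 3.17 at D0, 234 in Vec and 34.6 in Cre at 4h, 124 and 28.1 at D2, and 46.2 and 11.2 at D7. Vec was above Cre at each time after D0, 6.75-fold (6.28 to 7.27) at 4h. The orphan receptor Nr4a1 was at 95.4 and 30.2 (-1.63), the small GTPase Gem at 77.6 and 28.6 (-1.41), the transcriptional cofactor Cited1 at 45.9 and 20.2 (-1.14), the cAMP phosphodiesterase Pde4b at 67.5 and 30.9 (-1.10) and the kinase Sik1 at 37.7 and 17.2 (-1.09). Each of these was above its D0 level in Cre 4h too, as with Nr4a1 at 6.55 and Cited1 at 0.0426 in Cre D0.

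The other cAMP targets differed by less than the threshold, from -0.95 for Pde3b to 0.77 for Areg. Crem, which encodes the cAMP-induced repressor ICER, stood at 12.1 in Vec 4h and 12.5 in Cre 4h, with a ratio of Cre to Vec of 1.03 (0.883 to 1.21). Nr4a3 was at 8.18 and 10.1 and Nr4a2 at 11.9 and 17.4 (0.51), so the 3 Nr4a receptors did not share 1 direction under the deposited scaling. Among 17 AP-1 and early growth response factors, 2 were lower in Cre and 0 higher (median -0.39), beside 2.59% and 1.65% of all genes. The 2 were Egr2 (7.3997 and 2.54) and Maf (7.35 and 2.57). With TMM or median-of-ratios factors 4 were lower, since Maff (61.7 and 31.1, -0.97) and Fosl1 (20.5 and 10.7, -0.87) lay near the threshold, and with a pseudocount of 5 there were 0.

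Of 20 adipogenic regulators, 5 were lower in Cre and 0 higher (median -0.03), beside 2.59% and 1.65% of all genes. Cebpb, the factor that opens the cascade, was at 28.4 and 29.3 at D0, 220 in Vec and 85.1 in Cre at 4h, 115 and 77.0 at D2, and 55.7 and 50.8 at D7 (2.59-fold at 4h, 2.41 to 2.77). Its partner Cebpd stood at 12.5 and 10.5, 144 and 48.2, 41.7 and 11.3, and 11.9 and 14.3 at the same times (2.99-fold at 4h, 2.77 to 3.22), with Spidr overlapping the locus. Cre 4h was thus above both D0 libraries for each factor and below Vec 4h. Klf5, which works with C/EBP factors, was at 9.88 and 1.28 at 4h (7.73-fold, 4.71 to 13.5), below its D0 level of 2.57 in Cre. Egr2 and Zbtb16 were the others counted as lower. The later factors Pparg (13.6 and 10.6, -0.34) and Cebpa (9.05 and 11.5, 0.31) differed by less than the threshold, and Ebf2, a brown-fat determinant, was at 18.2 and 10.5 (-0.75).

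Kruppel-like factors diverged within the family. Of 12 tested, 3 were lower and 2 higher (median 0.18), beside 2.59% and 1.65% of all genes. With the other scalings or a pseudocount of 5, 1 was higher. Klf9 was at 43.6 in Vec 4h and 9.98 in Cre 4h (4.37-fold, 3.83 to 5.01) and Klf15, a regulator of amino acid and glucose metabolism, at 5.94 and 0.962 (6.17-fold, 3.74 to 10.9), with Klf5 as the third. Klf10 and Klf11, which are induced by TGF-beta, were higher in Cre, at 11.1 and 29.5 (2.65-fold, 2.34 to 3.00) and 1.64 and 4.50. In Vec, Klf11 was below its D0 value of 4.14.

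Of 18 clock genes, 2 were lower in Cre and 0 higher (median 0.08), beside 2.59% and 1.65% of all genes. Both were period genes, which repress the clock's activators. Per1 was at 5.59 and 5.60 at D0, 25.2 in Vec and 6.96 in Cre at 4h, 15.9 and 6.10 at D2, and 8.48 and 8.47 at D7 (3.61-fold at 4h, 3.16 to 4.15). Per2 was at 4.72 and 1.80 at 4h (-1.03). Nfil3 (109 and 56.4, -0.94) and Bhlhe41 (4.59 and 2.19, -0.81), both repressors, were lower without passing, and with the other scalings 3 clock genes were lower. With a pseudocount of 5, or with an RPKM of at least 5 in either library, 1 was lower and Per2 was not counted.

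Insulin and IGF signalling genes included 6 lower in Cre and 0 higher of 28 (median 0.00), beside 2.59% and 1.65% of all genes. The binding proteins that carry IGF stood out: Igfbp3 was at 9.89 and 11.1 at D0, 48.8 in Vec and 14.0 in Cre at 4h, 193 and 17.0 at D2, and 56.9 and 54.1 at D7. Igfbp2 had 34 reads in Vec 4h and 0 in Cre 4h, so that it was at least 7.12-fold higher in Vec with the floor of 3 reads, and the lower end of the 95% counting interval of the ratio was 5.48. Irs2, an adaptor below the insulin receptor, was at 27.2 and 12.4 (-1.07), the factor Foxo3 at 37.5 and 14.4 (-1.32) and the pseudokinase Trib1 at 22.04 and 6.61 (-1.60). Igfbp3 thus had its widest gap after 4h and no gap past the threshold at D7 (-0.07).

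Matrix proteases held the largest difference of all. Adamts15, which cleaves the proteoglycan versican, was at 0.675 in Vec and 0.707 in Cre at D0, 21.7 and 0.503 at 4h, 43.2 and 5.19 at D2, and 5.70 and 4.95 at D7. At 4h that was 43.0-fold higher in Vec (28.6 to 68.1), on 1575 reads against 23, and a difference of -3.91. Cre 4h was the lowest of the 8 libraries, but on 23 reads it was near the D0 values. Adamts1 was lower in Cre as well (206 and 62.8, -1.70), Adamts9 did not pass (58.9 and 29.7, -0.96), and Mmp11 was higher (17.7 and 51.7, 1.496). In all, 2 of 21 matrix proteases and inhibitors were lower and 1 higher (median 0.03), beside 2.59% and 1.65% of all genes.

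Of 43 collagens and matrix glycoproteins tested, 1 was lower in Cre and 1 higher (median -0.06), where 2.59% of all genes were lower and 1.65% higher. Ccn1, an integrin-binding matricellular protein, was at 66.3 and 65.5 at D0, 134 in Vec and 32.2 in Cre at 4h, 31.6 and 30.02 at D2, and 93.3 and 123 at D7, so that Vec 4h was the highest library and Cre 4h was below the D0 level (4.18-fold at 4h, 3.80 to 4.60). Has2, a hyaluronan synthase, was higher in Cre (17.0 and 43.3, 2.55-fold, 2.34 to 2.77), with the antisense Has2os overlapping it, and reads of the strands may be mixed. Col4a1, a basement membrane chain, was at 258 and 161 (-0.67) and Col15a1 at 11.7 and 6.64 (-0.74).

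Some lipid genes were lower at this early time. Scd1, the desaturase that makes oleate, was at 92.6 and 87.3 at D0, 646 in Vec and 192 in Cre at 4h, 412 and 124 at D2, and 2137 and 531 at D7. Its ratio at 4h was 3.37-fold (3.29 to 3.46) on 38324 and 7149 reads, and Vec stayed above Cre at D2 and D7. Of 15 fatty acid and triglyceride synthesis genes, 2 were lower, Scd1 and Lpin1, and 0 higher (median 0.17), with Elovl5 (138 and 73.8, -0.89) and Fasn (75.1 and 46.8, -0.67) short of the threshold. Cholesterol genes had 0 lower and 1 higher of 22 (median 0.22), the higher one being Ch25h, the 25-hydroxylase (4.77 and 15.3, 3.20-fold, 2.43 to 4.25). Fdps, Nsdhl and Sc5d of the synthesis pathway lay between 0.48 and 0.52. Pmvk, a kinase of the mevalonate pathway outside that list, was among the genes most reduced in Cre (116 and 15.4, 7.56-fold, 6.36 to 9.04), from 19.7 and 20.3 at D0.

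Angiogenic and hypoxia genes had 5 lower in Cre and 0 higher of 24 (median 0.03), beside 2.59% and 1.65% of all genes. Epas1, the hypoxia factor HIF-2α, was at 0.708 and 1.21 at D0, 8.88 in Vec and 1.6002 in Cre at 4h (5.55-fold, 4.30 to 7.28), 5.32 and 3.41 at D2, and 12.7 and 7.11 at D7. The stress-responsive Ndrg1 was at 64.8 and 17.7 (-1.82), the mitophagy gene Bnip3 at 9.71 and 2.29 (-1.70), Angpt2 at 7.78 and 1.73 (-1.68, with Mcph1 overlapping it) and the peptide hormone gene Adm at 4.90 and 1.32 (-1.35). Of 23 p53 targets and apoptosis regulators, 3 were lower, among them Trp53inp1 (80.2 and 17.9, -2.10) and Sesn1 (22.2 and 7.67, -1.42), and 2 higher, the death receptor Fas (1.65 and 5.06, 1.20) and the cytokine Gdf15 (1.505 and 4.67, 1.18), with a median of -0.10. With TMM and median-of-ratios factors 5 were lower and 2 higher, and with a pseudocount of 5 there were 3 and 0. T antigen is present in every library, and its part in these genes was not tested.

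Several of the 20 largest negative differences were in genes outside these lists. Rasd1, a Ras-related GTPase first described as dexamethasone-induced, was at 0.159 and 0.155 at D0, 15.8 in Vec and 0.404 in Cre at 4h, 1.14 and 4.76 at D2, and 15.6 and 7.25 at D7 (39.2-fold at 4h, 16.6 to 122, on 312 and 5 reads, with Med9 overlapping). At D2 the order of the genotypes was the opposite. Tmem119, a membrane protein of osteoblasts and microglia, was at 42.6 and 40.7, 234 and 22.2, 14.5 and 11.9, and 31.8 and 58.1 at the same times (10.6-fold at 4h, 9.48 to 11.8). Rhob, an endosomal GTPase, was at 49.9 and 51.3 at D0 and 138 and 15.2 at 4h (9.10-fold, 8.03 to 10.4). In Rhob and Tmem119 the Cre 4h library lay below both D0 libraries.

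Dpep1, a dipeptidase, was at 19.2 and 1.56 at 4h (12.3-fold, 8.35 to 18.8) and remained lower in Cre at D2 (22.7 and 1.11) and D7 (16.8 and 6.35). Gclc, which sets the rate of glutathione synthesis, was at 163 and 26.96 (6.04-fold, 5.59 to 6.53). The protocadherin Pcdh20 was at 8.19 and 0.446, the costimulatory ligand Icosl at 13.3 and 1.42, and the prokineticin receptor Prokr1 at 8.45 and 0.608. Among sets put together by symbol after the values were seen, 2 of 25 glutathione and cysteine genes were lower, Gclc and Cdo1 (36.1 and 6.36), and 2 of 23 sphingolipid genes, the sphingosine kinase Sphk1 (10.5 and 1.52) and the ceramidase Acer2 (7.37 and 0.895), while the sphingosine phosphate receptor S1pr1 was higher. Of 179 solute carriers tested, 5 were lower and 1 higher, beside 2.59% and 1.65% of all genes.

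**Figure D3:**
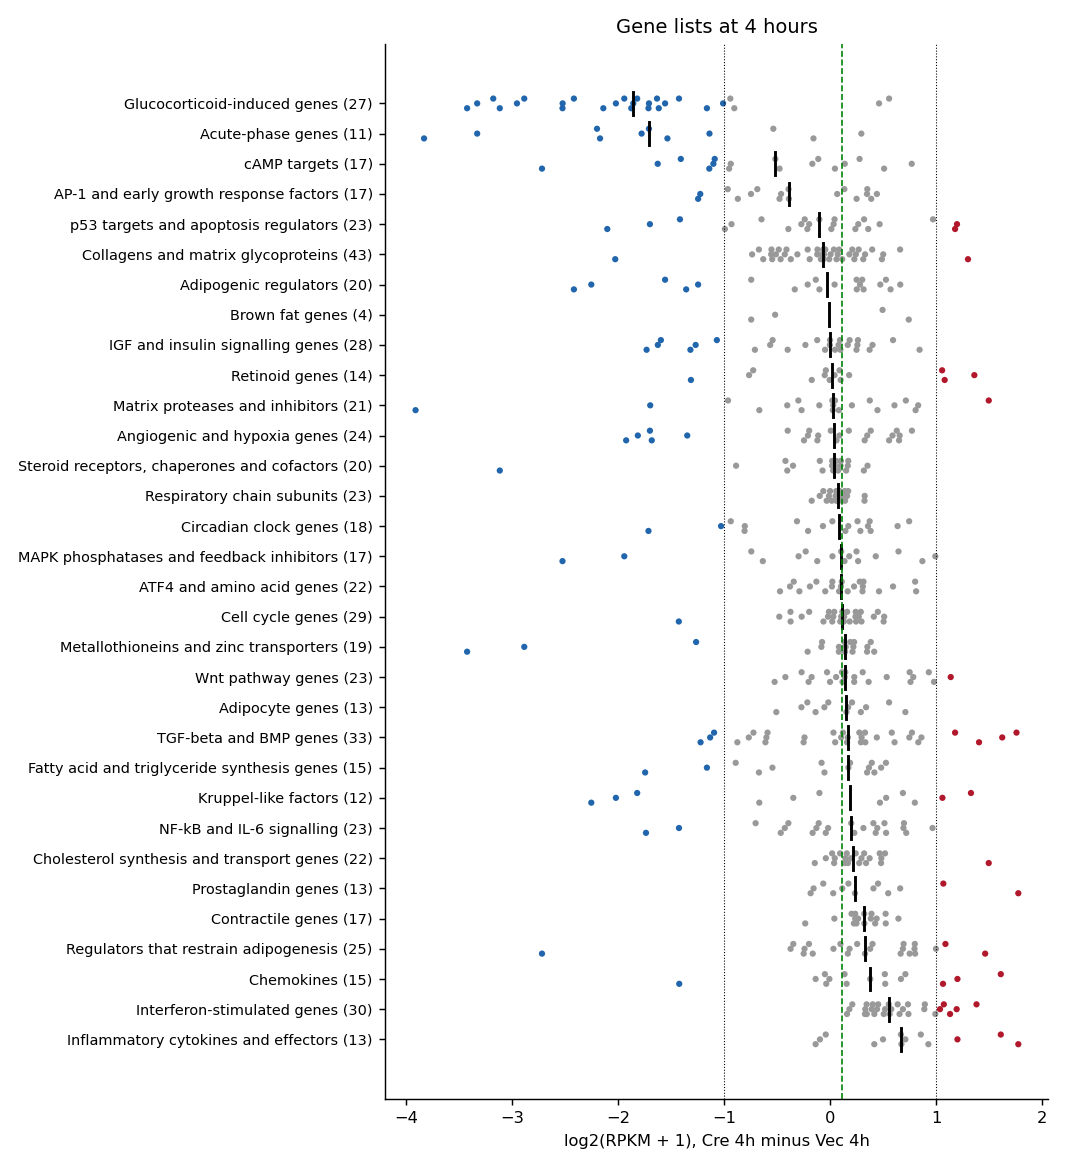
Difference in log2(RPKM + 1), Cre 4h minus Vec 4h (x axis), of every tested member of 32 gene lists, with the number tested in parentheses, a black bar at each list's median, dotted lines at -1 and 1, a dashed green line at the median of all genes (0.11), and blue and red for members lower and higher in Cre. Glucocorticoid-induced (median -1.86) and acute-phase genes (-1.71) lie farthest to the left, and interferon-stimulated (0.56) and inflammatory genes (0.67) farthest to the right.

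On the higher side, the largest difference was in Tnfrsf11b, which encodes osteoprotegerin, the decoy receptor for RANKL. It was at 2.49 in Vec and 2.12 in Cre at D0, 1.30 and 20.8 at 4h, 0.0123 and 0.254 at D2, and 0.842 and 1.98 at D7. Cre 4h was 15.98-fold above Vec 4h (11.7 to 22.2), on 452 reads against 45, and it stands apart from the other 7 libraries. Slc37a2, a phosphate-linked sugar phosphate exchanger, was at 1.69 and 1.72 at D0, 4.39 and 28.1 at 4h, 2.29 and 3.06 at D2, and 1.28 and 1.62 at D7 (6.39-fold at 4h, 5.54 to 7.39). Olr1, a receptor for oxidised LDL, stood at 3.36 in Vec 4h and 16.4 in Cre 4h (4.87-fold, 4.03 to 5.91), and Nptx1, a neuronal pentraxin, at 11.1 and 41.1 (3.72-fold, 3.41 to 4.07). In these 4 genes the Cre 4h library was the highest of the 8.

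In other genes higher in Cre, the Vec level at 4h was below that of D0. Chst1, a carbohydrate sulfotransferase, was at 7.38 and 8.06 at D0, 1.28 in Vec and 7.64 in Cre at 4h, 4.96 and 7.23 at D2, and 7.96 and 6.52 at D7 (5.98-fold at 4h, 4.24 to 8.62). Socs5, a suppressor of cytokine signalling, was at 32.0 and 32.1 at D0, 7.24 and 25.2 at 4h, 8.03 and 14.0 at D2, and 18.8 and 29.3 at D7 (3.48-fold at 4h, 3.08 to 3.93). Fhdc1, Nav3 and Shroom4, which act on actin or microtubules, stood at 1.71 and 7.87, 0.765 and 4.27, and 1.55 and 6.39 at 4h. In each of these 5 genes the Vec 4h value was below both D0 values.

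Inflammatory cytokines and effectors included 0 lower and 3 higher in Cre of 13 (median 0.67), and 3 were higher with each of the other scalings too. Ptgs2, the inducible cyclooxygenase COX-2, was at 4.78 and 4.995 at D0, 8.15 in Vec and 30.3 in Cre at 4h, 1.55 and 2.97 at D2, and 2.15 and 2.94 at D7 (3.72-fold at 4h, 3.31 to 4.18). Ccl2, the chemokine that draws monocytes, was at 31.6 and 31.2, 20.7 and 65.4, 2.79 and 7.02, and 32.9 and 44.6 at the same times (3.15-fold at 4h, 2.66 to 3.75). Cxcl10, which draws T cells, was at 13.4 and 32.0 at 4h (2.40-fold, 1.97 to 2.92), with Art3 overlapping, and was already higher in Cre at D0 (12.7 and 19.9). Lif (1.58 and 3.91, 0.93) and Il6 (6.15 and 11.9, 0.85) did not reach the threshold, and Cxcl1 was at 14.1 and 12.7 (-0.14).

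Of 15 chemokines, 3 were higher in Cre and 1 lower (median 0.38), beside 1.65% and 2.59% of all genes. With the other scalings 2 were higher. Ccl9 was the third higher one (1.36 and 3.93, 1.06). Ccl11, eotaxin, was lower (9.81 and 3.02, -1.43). Of 13 prostaglandin genes, 0 were lower and 2 higher (median 0.23), Ptgs2 and Pla2g4a, the phospholipase that frees arachidonic acid (11.9 and 26.1, 1.07). Pla2g4a was within the threshold with the other scalings, where 1 was higher. Indomethacin, which inhibits cyclooxygenases, was in the mix of both genotypes.

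Interferon-stimulated genes lay to one side as a group. All 30 tested were above 0 with the deposited scaling, with TMM, with median-of-ratios factors and after centring, and their median was 0.56. Past the threshold were 5, or 3 with each of the other scalings and 1 with a pseudocount of 5, and 0 were lower. Of all 11897 genes tested, 7860 were above 0 with the deposited scaling and 1.65% were higher. Rsad2, the antiviral enzyme viperin, was at 4.91 and 8.74 at D0, 5.32 in Vec and 15.5 in Cre at 4h, 0.394 and 1.22 at D2, and 14.9 and 15.0 at D7 (2.90-fold at 4h, 2.48 to 3.41). Ifit1, which binds viral RNA, stood at 77.2 and 96.7, 107 and 227, 11.1 and 35.3, and 71.5 and 80.0 at the same times. Cmpk2 (3.71 and 9.77), Oasl1 (4.03 and 10.0) and Ifit2 (11.4 and 24.5) were the others past it, and Isg15 was at 143 and 225 (0.65).

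The interferon-stimulated genes were already slightly higher in Cre before induction, with a median of 0.24 at D0, where all genes had 0.01. At D2 19 of 28 were higher in Cre (2.55% of all genes), with a median of 1.22, and at D7 the median was -0.03. Whether the D0 difference has a part in the 4h difference was not tested.

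**Figure D4:**
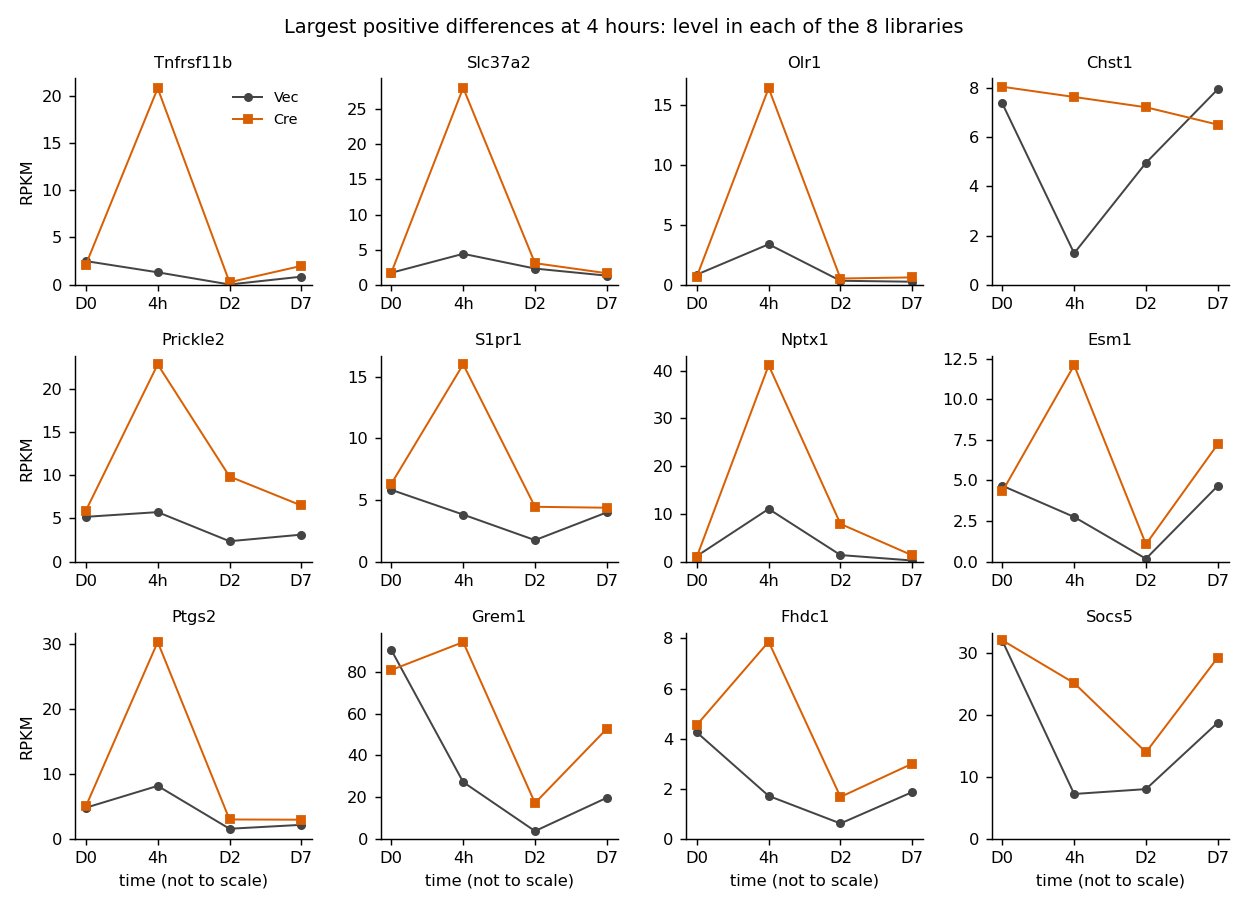
RPKM (y axes, each on its own linear scale) of 12 genes with the largest positive differences at 4h, in Vec (grey circles) and Cre (orange squares) at D0, 4h, D2 and D7, 1 library per point. Tnfrsf11b, Slc37a2, Olr1 and Nptx1 peak in Cre 4h, whereas Chst1 and Socs5 are low in Vec 4h and near their D0 level in Cre 4h.

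TGF-beta and BMP genes had members on each side, 3 lower and 4 higher of 33 (median 0.17), beside 2.59% and 1.65% of all genes. Grem1, which encodes a secreted BMP antagonist, was higher. It was at 90.6 and 81.0 at D0, 27.2 in Vec and 94.4 in Cre at 4h, 3.70 and 17.2 at D2, and 19.7 and 52.8 at D7 (3.47-fold at 4h, 3.13 to 3.85), so that Cre was above Vec at each time after D0. Inhba, the activin A subunit, was at 26.4 and 71.5 (2.71-fold, 2.42 to 3.03), and Gdf15 was higher as well. The receptors Tgfbr2 (107 and 49.7, -1.10) and Tgfbr3 (101 and 42.7, -1.22) and the ligand Bmp3 (1.83 and 0.292, -1.13) were lower. Lrrc32, which docks latent TGF-beta on the cell surface and was not in that list, was higher (33.8 and 97.4, 2.88-fold, 2.71 to 3.07).

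A list drawn up for regulators that restrain adipogenesis had 1 lower and 2 higher of 25 (median 0.33), beside 2.59% and 1.65% of all genes. With the other scalings 1 was higher, and with a pseudocount of 5 there were 0. Runx1t1 was at 12.2 and 12.8 at D0, 2.26 in Vec and 7.99 in Cre at 4h, 2.12 and 7.85 at D2, and 5.54 and 10.8 at D7 (3.53-fold at 4h, 2.93 to 4.27). Sox9 was at 6.51 and 15.0 (1.09), and Runx1 (5.22 and 11.4) stood at a difference of 1.00 to 2 decimals, just under the threshold. The lower member was Rgs2, also counted among the targets of cAMP, and its role in adipogenesis was not tested. Of 23 Wnt pathway genes, 0 were lower and 1 higher (median 0.14), the receptor Fzd6 (10.9 and 25.2, 1.14), with Fzd2 (3.84 and 8.55, 0.98), Wnt16 (0.587 and 2.03, 0.93) and Fzd7 (10.8 and 19.3, 0.78) below the threshold. Prickle2, of the planar polarity branch and outside that list, was at 5.73 and 22.8 at 4h (3.98-fold, 3.61 to 4.39).

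Of 14 retinoid genes, 1 was lower and 3 higher (median 0.02), beside 2.59% and 1.65% of all genes. The retinol dehydrogenase Rdh10 was at 10.7 and 29.1 (2.71-fold, 2.35 to 3.14), the retinoic acid receptor Rarg at 3.44 and 8.23 (1.06) and the binding protein Crabp2 at 1.18 and 3.60 on 13 and 25 reads. Rarres1 was lower (5.61 and 1.66, -1.32). With TMM 1 was higher, with median-of-ratios factors 2, and with a pseudocount of 5 there was 1 higher and 0 lower.

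Hox genes, a family looked at after its values were seen, encode the homeodomain factors that record a cell's position along the body axis. Of 27 tested, 11 were higher in Cre and 0 lower, with a median of 0.78, and 26 were above 0, the exception being Hoxa5 (10.9 and 8.50). Of all 11897 genes tested, 1.65% were higher, 2.59% were lower and 7860 were above 0. With TMM or median-of-ratios factors 5 were higher, and 25 lay above 0. Hoxc6 was at 45.7 and 39.9 at D0, 19.9 in Vec and 57.9 in Cre at 4h, 27.1 and 30.6 at D2, and 24.96 and 29.6 at D7 (2.91-fold at 4h, 2.57 to 3.30). Hoxb9 was at 48.5 and 42.8, 16.9 and 37.7, 15.5 and 20.05, and 23.9 and 33.1 at the same times. Hoxb3 was at 11.4 in each at D0, and at 3.49 and 11.2 at 4h. In these 3 the Vec 4h value was below D0, and the median over the family was -0.05 at D0, 0.18 at D2 and 0.28 at D7. Of 264 genes of the Zfp zinc finger series, 0 were past the threshold.

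The remaining lists had few or no members past the threshold, where 4.24% of all genes were. Of 13 adipocyte genes tested 0 were lower and 0 higher (median 0.15), with Fabp4 at 18.6 and 12.8 (-0.51) and Plin2 at 26.3 and 43.6 (0.71), and 0 of 4 brown fat genes (median -0.01). At D7, by comparison, 21 of 26 adipocyte genes were lower in Cre (3.12% of all genes). Respiratory chain subunits had 0 of 23 (median 0.07, from -0.18 for Cox5a to 0.33 for Uqcrc1), ATF4 and amino acid genes 0 of 22 (median 0.10) and contractile genes 0 of 17 (median 0.32). Of 29 cell cycle genes, 1 was lower, Myc (71.8 and 26.0, -1.43), and 0 higher (median 0.11). Of 20 steroid receptors, chaperones and cofactors, Fkbp5 was the 1 gene lower and 0 were higher (median 0.04), and Vdr, the vitamin D receptor, was at 300.08 and 162 (-0.89), counted as lower with the other scalings.

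Part of the 4h difference was still seen on day 2. The comparisons at D0, D2 and D7 share no library with that at 4h, but as far as the labels say every time is taken from 1 line per genotype. Of the 308 genes lower at 4h, 247 were tested at D0, where their median was 0.01, 9 were lower and 3 higher. Of those 12, Nr3c1 was the protein-coding gene, and the others were small non-coding RNAs.

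At D2 280 of them were tested and had a median of -0.45. There 71 were lower (25.4%, where 1.32% of the genes tested at 4h were) and 9 higher, and 76.8% were below 0, as were 56.2% of all. These 71 are 23.1% of the genes lower at 4h and 38.8% of the 183 genes lower at D2. At D7 24 of 276 were lower (8.70%, all 2.22%) and 11 higher, and 138 were on each side of 0. Genes lower at all of 4h, D2 and D7 numbered 11, among them Nr3c1, Glul, Klf15, Rgs2, Scd1, Zbtb16 and Dpep1.

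Of the 196 genes higher at 4h, 164 were tested at D2 and had a median of 0.49, with 36 higher (21.95%, all 2.40%) and 5 lower, and 84.1% were above 0, as were 43.8% of all. These 36 are 18.4% of the genes higher at 4h and 11.8% of the 304 higher at D2. At D7 the median over 175 was 0.26, 12 were higher (6.86%, all 1.29%) and 125 were above 0. Grem1 and Eps8, an actin regulator (19.6 and 60.8 at 4h), were among the 6 genes higher at all 3 times. The set lower at 4h was thus centred on 0 by D7, while the set higher at 4h was still above it.

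**Figure D5:**
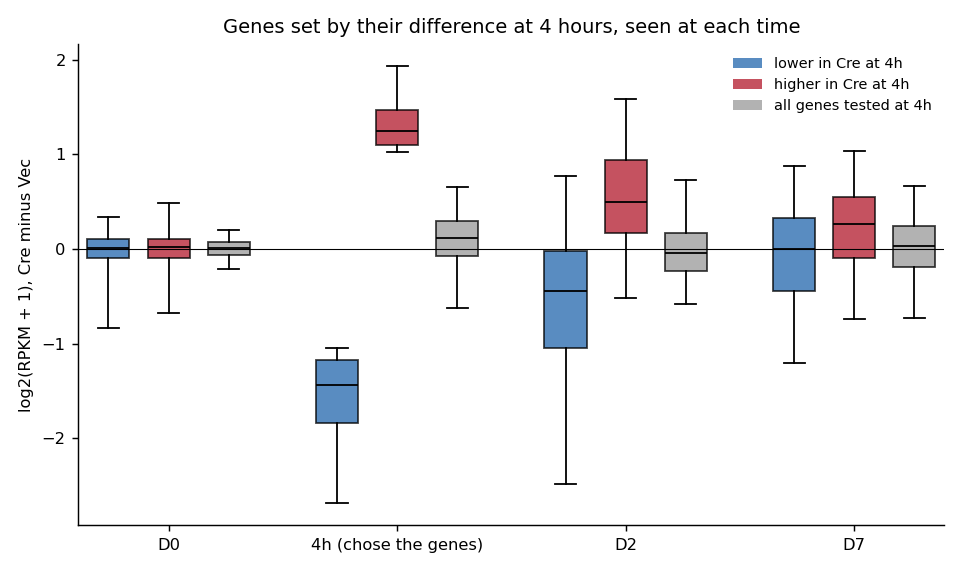
Difference in log2(RPKM + 1), Cre minus Vec (y axis), at each time (x axis) for the genes lower at 4h (blue), higher at 4h (red) and all tested at 4h (grey). Boxes span the quartiles with a line at the median and whiskers from the 5th to the 95th percentile, the 4h boxes show the values that chose the genes, and at D2 the blue and red medians lie at -0.45 and 0.49.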

How the data were processed

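RNA sequencing of 8 libraries was used, 1 per genotype and time, grouped by the genotype and time in their titles, and 22 ChIP samples were not analysed here. The authors deposited 1 table per library, per the file headers, in which every RefSeq transcript has its read count and its RPKM. The submitters' processing notes list CASAVA 1.8.2, SICER and the build mm9 without their roles. For the aligner, the read counter, strand handling and the placing of reads with several matches, details are not given in the sources used. Library totals (7.71 to 28.9 M reads) and transcript lengths were recovered from count and RPKM.

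Of 29082 accessions, 28432 matched a symbol in the GRCm38.p6 RefSeq table, which served for names and promoters, and 650 kept their accession. Each symbol was represented by its accession of most reads in the 8 libraries together, which left 23109 genes. A gene was tested with an RPKM of at least 1 in either 4h library, and counted where log2(RPKM + 1) differed by at least 1, with no test. Ratios carry 95% exact conditional binomial (Clopper-Pearson) intervals of the reads (SciPy 1.17.1), and a gene at 0 reads was set to a floor of 3 reads. PCR copies are not independent molecules, so intervals and floors cover counting error only, and the depth limits genes of few reads most.

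Alternatives were TMM factors (edgeR 4.0.16, R 4.3.3, used for scaling only), median-of-ratios factors, pseudocounts of 0.25 and 5, other filters on RPKM, another choice of accession, Vec 4h thinned to the depth of Cre 4h, a requirement that the interval exclude 1, and, added after seeing the data, centring on the median gene. The genes named are Nr3c1, the 20 largest differences on each side with at least 30 reads and a symbol that is not an uncharacterised or non-coding locus, members of 32 lists past the threshold, and up to 4 of the largest differences of each list. Other genes are named for the promoter search, the threshold or a family, as the text says, or as a reference level within a list. Some genes that this rule names are not reported here. The members and lists were chosen with earlier results of these data known.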

Additional observations from a re-analysis of the deposited data

Results flagged for a closer look

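In 3 named genes the level moved in opposite directions between D0 and 4h in the genotypes, by at least 1 on the log2(RPKM + 1) scale in each. Rhob went up by 1.45 in Vec and stood at -1.69 in Cre relative to D0. Prokr1 went up by 1.37 in Vec and stood at -1.40 in Cre, and Ccn1 went up by 1.01 in Vec and stood at -1.002 in Cre. Each value compares 1 library with 1 library, so the difference between genotypes was not tested.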

How the results depend on the processing

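The 308 genes lower and 196 higher in Cre stayed past the threshold in part under stricter settings. With a pseudocount of 5 in place of 1, 147 were lower and 48 higher, and with 0.25 there were 392 and 345. An RPKM of at least 5 in either library left 230 and 128, and an RPKM of at least 1 in both left 229 and 137. TMM factors gave 401 and 147, median-of-ratios factors 399 and 149, and centring on the median gene, a setting chosen after seeing the data, 372 and 141. The share of higher genes was thus 26.8%, 27.2% and 27.5% in place of 38.9%. It was 24.6% with a pseudocount of 5 but 46.8% with 0.25, and 40.5% with Vec 4h thinned to the depth of Cre 4h. Vec 4h thinned to the depth of Cre 4h gave 329 and 224, of which 293 and 181 were in the main sets. With the requirement that the interval exclude 1 there were 256 and 138. Another choice of accession gave the main counts. Without a filter the counts cannot change, because a difference of 1 with a pseudocount of 1 already requires an RPKM of at least 1. Of 116 named genes past the threshold, 108 were past it with TMM, 109 with median-of-ratios factors, 79 with a pseudocount of 5 and 115 after thinning. No direction was reversed, but a pseudocount or a filter cannot reverse one, and the scalings shifted values by much less than the threshold of 1. No paired analysis was possible because each genotype has 1 library at 4h, and for the same reason no library could be left out. A fit of genotype with the 4 times as pairs would average over times, so it would not test the 4h difference, and it was not run.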

Other observations

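Genes of the RGS family, which end signals of G-protein-coupled receptors, differed among themselves at 4h. Of 7 tested, Rgs2 was lower in Cre, while Rgs16 (1.82 in Vec and 6.17 in Cre, 3.40-fold higher in Cre, 2.42 to 4.82) and Rgs4 (1.69 and 5.91, 3.49-fold, 2.56 to 4.81) were higher. Rgs16 was higher in Cre at D2 as well (2.15 and 13.0). Of 10 genes of the TNF receptor family, Tnfrsf11b and Tnfrsf12a (13.9 and 33.5, 2.42-fold, 1.98 to 2.96) were higher and 0 lower, and Tnfrsf12a was at 36.8 in Vec D0 and 37.4 in Cre D0. Of 21 semaphorins and plexins 0 were past the threshold, with a median of 0.28. These families were chosen after their values were seen, and 2.59% of all genes were lower and 1.65% higher.

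Phospho1, a phosphatase of phosphocholine, was higher in Cre at 4h (4.48 in Vec and 14.5 in Cre, 3.24-fold, 2.56 to 4.14) and lower at D7 (60.5 and 19.1), with Abi3 overlapping the locus. Genes with the highest RPKM in Vec 4h were Mt1 and Mt2, which ranked 60 and 158 in Cre 4h. The limits are those of the design: 1 library per genotype and time, 1 line per genotype as far as the labels say, 7.71 M reads in Cre 4h, no RNA of cells without dexamethasone analysed here, and counting rules that the sources used here do not give.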
